A study of Homo sapiens with 18 samples.

Results

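Loss of the cohesin loader subunit SCC4 (gene symbol MAU2) was followed in cells that already lacked WAPL, by setting 3 *ΔWAPL*/*ΔSCC4* RNA samples against 3 samples of their parental *ΔWAPL* clone 3.3, which are 6 of the 18 samples of the series. The members are all 20329 genes in the count files, of which 12544 had enough reads to be tested and 7785 did not. All samples were HAP1, a near-haploid human cell line derived from a chronic myeloid leukaemia that carries a mutated p53. The *ΔWAPL* cells held a blasticidin cassette in WAPL, and the *ΔWAPL*/*ΔSCC4* cells held in addition a puromycin cassette in MAU2. The remaining samples are used for reference only. They are 3 *ΔSCC4* samples, 3 samples of another *ΔWAPL* clone, 1.14, and 2 sets of 3 controls, labelled A and B. The labels do not say which controls go with which clone. By the run and lane in the file names, controls A were taken with clone 3.3, *ΔSCC4* and *ΔWAPL*/*ΔSCC4* (set A) and controls B with clone 1.14 (set B), and counts of called genes with the controls exchanged are also given. As each genotype was 1 clone, loss of SCC4 and other differences between the *ΔWAPL*/*ΔSCC4* clone and its parent cannot be told apart, and nothing in the labels says that replicates came from separate cultures, so that the p-values measure the spread between these samples.

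Cohesin is a ring-shaped protein complex that entraps DNA and extrudes chromatin loops. The SCC2/SCC4 complex loads it on DNA and sustains loop extrusion, and WAPL opens the ring and releases it. Without WAPL, cohesin stays on chromatin for longer and loops grow. SCC4 also stabilises its partner SCC2 (NIPBL). The comparison asks which genes respond to loss of the loader subunit when release is already gone.

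The guides are shown because they place both lesions, and the reads of the targeted gene depend on where the cassette went in. Lower case gives the guide 5′ to 3′ without its cloning overhang, and capitals give the genomic PAM that follows it.
SCC4 guide: tacgggcctcgatgcgctgCGG
WAPL guide: cgttccatagtatcctgtaTGG
Each matched the GRCh37 genome at 1 place. The SCC4 guide matched chromosome 19 from 19431849 to 19431867 (minus strand), where exon 1 of MAU2 (19 exons) is coding, and the WAPL guide matched chromosome 10 from 88259864 to 88259882 (plus strand), inside coding exon 3 of WAPL (19 exons).

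MAU2 (ENSG00000129933, chromosome 19 from 19431638 to 19469563) had 59.3, 52.1 and 57.0 CPM in the 3 *ΔWAPL* samples, where CPM is counts per 1000000 reads on genes, scaled by TMM. It had 0.91, 1.04 and 0.848 CPM in the *ΔWAPL*/*ΔSCC4* samples. The groups did not overlap, and the log2 fold change was -5.90 (SE 0.17, adjusted p = 2.57e-12, edgeR). Over the group, 48 reads remained of 2783 in the parent. The controls of set A had 65.6 ± 6.25 CPM (SD, n = 3) and *ΔSCC4* cells 0.702 ± 0.243 (SD, n = 3), so both clones labelled as lacking SCC4 had low MAU2. WAPL had 40.3 to 50.2 CPM in the parent and 41.0 to 48.5 in *ΔWAPL*/*ΔSCC4* cells. The groups overlapped, with a log2 fold change of 0.06 (SE 0.13, adjusted p = 0.846). Set A controls had 99.2 ± 21.5 CPM of WAPL and *ΔSCC4* cells 85.2 ± 16.1 (SD, n = 3 each), each sample above those of both *ΔWAPL* groups. Of 23 tested genes within 500 kb of MAU2, PBX4, a homeobox gene, passed the threshold, with 1.79 to 2.33 CPM in the parent and 3.38 to 3.85 in *ΔWAPL*/*ΔSCC4* cells (log2 fold change 0.76, adjusted p = 0.0145). That call was lost when *ΔWAPL*/*ΔSCC4* replicate 1 or 3 was left out. The lowest log2 fold change of the 23 was -0.28.

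The samples had 14212412 to 20711127 reads on genes in the parent and 16095103 to 17591399 in *ΔWAPL*/*ΔSCC4* cells. Of the HAP1 markers, VIM fell from 440 ± 16.8 to 254 ± 20.5 CPM and ABL1 rose from 7.82 ± 0.313 to 16.7 ± 0.929 CPM (SD, n = 3 each), while BCR had 30.9 and 30.6 CPM on average. The 7 blood cell markers (PTPRC, SPI1, GATA1, KLF1, HBG1, CD34 and ITGAM) had at most 3 reads each over either group, and SPI1 and HBG1 had none. Of the epithelial markers, CDH1 had no read in either group, EPCAM had 15 reads in the parent and 34 after SCC4 loss, and KRT8 rose from 3.72 to 48.5 CPM on average. Of the fibroblast markers COL1A2 had none, and COL1A1 rose from 18.9 to 29.4 CPM on average. Among the neural markers, SOX2 had 437 and 494 CPM on average, NES rose from 155 to 261 and MAP2 fell from 22.2 to 2.78, while TUBB3 did not pass (1.16 and 1.72 CPM). The part of these markers in the results that follow was not tested. As these were bulk samples, fewer cells with a transcript and less of it per cell cannot be told apart.

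Of the 12544 genes tested, 1330 (10.6%) passed an adjusted p of 0.05, of which 759 (6.05% of those tested) rose and 571 (4.55%) fell in *ΔWAPL*/*ΔSCC4* cells. Most changes were small: 837 of them were under 2-fold, 299 rises and 194 falls were at least 2-fold, and the median size was 0.79 on the log2 scale. Over all tested genes the median log2 fold change was -0.01 and the quartiles were -0.16 and 0.15. Groups of 3 separated without overlap in 27.8% of all tested genes. The count was 861 without *ΔWAPL* replicate 2, which was the lowest among all settings tried.

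The largest rises were genes that the parent hardly expressed. NLRP2, an imprinted innate-immunity gene on chromosome 19, had no read in any *ΔWAPL* sample. In *ΔWAPL*/*ΔSCC4* cells it had 16.1, 14.4 and 17.0 CPM, or 818 reads in all. Against the floor of 3 reads over a group it was at least 261-fold higher. The controls of set A had 2.58 ± 0.559 CPM and *ΔSCC4* cells 0.67 ± 0.222 (SD, n = 3 each), so that the *ΔWAPL*/*ΔSCC4* level was the highest of the set.

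ALX4, a homeobox factor of craniofacial and limb development, had 0.548, 0.495 and 0.598 CPM in the parent. It had 76.7, 68.0 and 83.3 CPM in *ΔWAPL*/*ΔSCC4* cells, a log2 fold change of 7.10 (SE 0.19, adjusted p = 1.58e-12). GJA1, which encodes the gap junction protein connexin 43, had 0.665 to 1.10 CPM in the parent and 16.5 to 22.3 after SCC4 loss (log2 fold change 4.47, SE 0.22, adjusted p = 8.81e-10). Both had low levels in the controls of set A, with 5.72 and 1.38 CPM on average, and both were higher in *ΔSCC4* cells, with 34.6 and 14.4 CPM.

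UBE2QL1, a ubiquitin-conjugating enzyme relative, had 3 reads in the parent and 254 in *ΔWAPL*/*ΔSCC4* cells, a ratio of 80.9 with a 95% counting interval of 27.4 to 395. OVOL2, a transcription factor of epithelial identity, went from 4 to 268 reads, and KSR2, a scaffold of RAS signalling, from 4 to 229. The other 6 of the 12 largest rises had log2 fold changes of 3.77 to 4.5. They were BSPRY, MCTP2, the renal salt transporter SLC12A3, the chondroitin sulfotransferase CHST15, the endothelial adhesion molecule VCAM1, and POF1B, an actin-binding protein. SLC12A3 stood at 6.92 ± 1.12 CPM in the controls, 0.477 on average in the parent and 9.99 in *ΔWAPL*/*ΔSCC4* cells. Of the 12, 8 had every parent sample below every control of set A, and 11 had every *ΔWAPL*/*ΔSCC4* sample above every control. The rule that named these genes chose low parent and high *ΔWAPL*/*ΔSCC4* values, which favours both counts.

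The largest falls included genes that ended near 0. TFPI2, a secreted protease inhibitor, had 12.2, 11.2 and 11.4 CPM in the parent and no read in any *ΔWAPL*/*ΔSCC4* sample. It was at least 201-fold lower, against the floor of 3 reads over the group. The controls had 2.28 ± 0.267 CPM and *ΔSCC4* cells 8.88 ± 0.766 (SD, n = 3 each), so TFPI2 was expressed in each other group of the set. ZNF804A, a zinc finger gene linked to neuronal development, went from 188 reads to 1, a ratio of 197 with a 95% counting interval of 34.9 to 7810.

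Several of the falls encode neuronal surface proteins. The latrophilin ADGRL3 had 7.31 to 9.17 CPM in the parent and 0.123 to 0.171 in *ΔWAPL*/*ΔSCC4* cells (log2 fold change -5.71, SE 0.27, adjusted p = 8.81e-10). The adhesion molecule NCAM2 had 17.1, 14.8 and 12.1 CPM in the parent and 0.569, 0.307 and 0.396 after SCC4 loss (log2 fold change -5.08, SE 0.24, adjusted p = 8.81e-10). Its controls had 0.391, 0.802 and 0.596 CPM, which overlapped the *ΔWAPL*/*ΔSCC4* samples and lay below every parent sample. OLFM3, an olfactomedin of the nervous system, had 14 to 20.1 CPM in the parent and 0.369 to 0.854 after SCC4 loss, and the ephrin receptors EPHA6 and EPHA3 had log2 fold changes of -4.78 and -3.74.

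CROT, a peroxisomal carnitine acyltransferase, had 6.53, 3.89 and 3.92 CPM in the parent and 0.114, 0.246 and 0.113 in *ΔWAPL*/*ΔSCC4* cells. Here the controls (6.30 ± 1.82 CPM) and *ΔSCC4* cells (8.18 CPM on average) were like the parent or higher. The lipid raft protein RFTN1 followed the NCAM2 pattern in part, with 0.252 CPM on average in the controls, 3.71 in the parent and 0.216 after SCC4 loss. In *ΔSCC4* cells RFTN1 had 1.09 CPM on average, above the controls, and NCAM2 had 0.122. Of the 12 largest falls, which include MAU2, 7 had every parent sample above every control and 3 had every parent sample below. The rule chose high parent values, which favours the former.

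**Figure D1:**
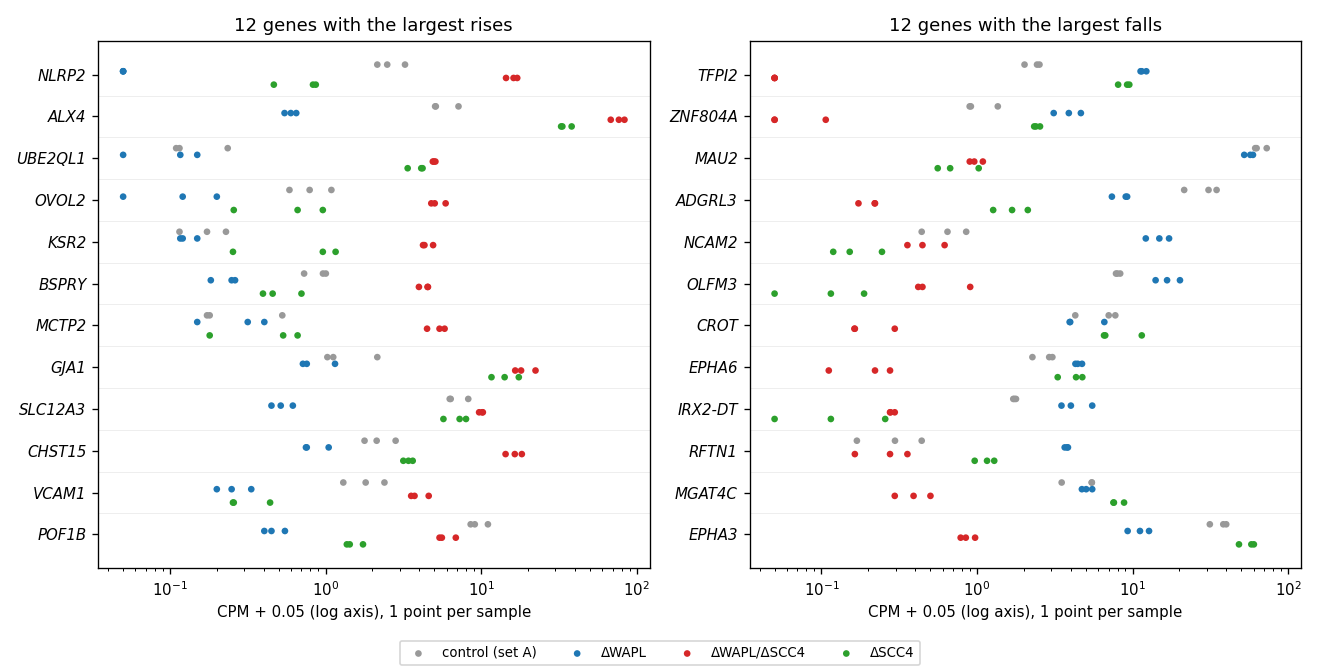
Expression of the 12 genes with the largest rises (left) and the 12 with the largest falls (right) after SCC4 loss in *ΔWAPL* cells, 1 point per sample, as CPM + 0.05 on a log axis, in the 4 groups of set A. *ΔWAPL* (blue) and *ΔWAPL*/*ΔSCC4* (red) samples do not overlap in any row because the rule that named the genes required it; NLRP2 has no reads in *ΔWAPL* and TFPI2 none in *ΔWAPL*/*ΔSCC4* cells.

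The sequences upstream of 4 of these genes are shown because their transcripts went to or from near 0 reads. Each is the 250 bases before a RefSeq start site (build GRCh38.p14, transcript orientation), with CG dinucleotides, the sites of DNA methylation, in capitals. For NLRP2 RefSeq gave a further start site, whose upstream bases also held 10 CG.
TFPI2 (chr7:93890754-93891003, minus strand): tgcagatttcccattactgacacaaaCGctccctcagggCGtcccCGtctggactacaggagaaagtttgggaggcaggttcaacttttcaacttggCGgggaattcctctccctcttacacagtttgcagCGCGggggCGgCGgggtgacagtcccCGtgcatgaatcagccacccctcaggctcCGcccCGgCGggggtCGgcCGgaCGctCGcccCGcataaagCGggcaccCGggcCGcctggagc
ZNF804A (chr2:184598279-184598528, plus strand): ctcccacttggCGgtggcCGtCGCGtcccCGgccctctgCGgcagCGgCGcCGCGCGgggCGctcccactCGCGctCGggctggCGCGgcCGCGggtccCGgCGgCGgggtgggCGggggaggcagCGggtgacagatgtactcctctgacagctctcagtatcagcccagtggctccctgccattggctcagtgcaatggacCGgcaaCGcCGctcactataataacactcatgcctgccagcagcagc
CROT (chr7:87345414-87345663, plus strand): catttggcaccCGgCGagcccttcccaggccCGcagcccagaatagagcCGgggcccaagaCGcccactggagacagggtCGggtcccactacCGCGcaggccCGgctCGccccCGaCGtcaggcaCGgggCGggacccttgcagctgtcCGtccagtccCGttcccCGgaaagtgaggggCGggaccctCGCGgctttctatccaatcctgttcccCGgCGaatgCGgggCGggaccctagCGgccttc
NLRP2 (chr19:54965034-54965283, plus strand): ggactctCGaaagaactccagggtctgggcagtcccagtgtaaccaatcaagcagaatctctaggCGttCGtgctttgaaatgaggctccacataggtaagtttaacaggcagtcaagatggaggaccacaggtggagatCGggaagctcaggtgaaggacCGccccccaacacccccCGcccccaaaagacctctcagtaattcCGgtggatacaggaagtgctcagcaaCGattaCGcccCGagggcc
The stretches held 20, 27, 25 and 10 CG. Over 15011 such stretches of 10107 tested genes the median was 20, with quartiles of 12 and 28, so that 3 of the 4 were at or above the median and NLRP2 was below the lower quartile. The median was 18 for genes that rose and 16 for those that fell.

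The genes of the cohesin machinery were examined beside the 10.6% of all genes that passed. None of the 7 tested core subunits, which are ring subunits and STAG proteins, passed the threshold in edgeR or DESeq2. An unadjusted p under 0.05 in edgeR was reached by 4, 3 of them higher, beside 2875 of all 12544 genes. RAD21, the ring's kleisin, had 557 CPM on average in the parent and 429 after SCC4 loss (log2 fold change -0.37, adjusted p = 0.0669). SMC1A, SMC3 and STAG2 had log2 fold changes of 0.15, -0.24 and -0.08, and STAG1, STAG3 and the meiotic REC8 had 0.36, 1.21 and 0.50. At an adjusted p of 0.05, 1 core subunit was called without *ΔWAPL* replicate 1, 2 without *ΔWAPL* replicate 3 and 1 without *ΔWAPL*/*ΔSCC4* replicate 2. Of 14 tested loading and release factors (14.3% called, the targeted gene included), MAU2 and SGO2, a protector of centromeric cohesin (log2 fold change -0.47, adjusted p = 0.0157), fell. SGO2 was lost without *ΔWAPL* replicate 2, without *ΔWAPL*/*ΔSCC4* replicate 1 or 2, and in the fit over 18 samples. NIPBL, whose protein is SCC2, had 130 and 120 CPM on average (log2 fold change -0.11, adjusted p = 0.665), and PDS5A and PDS5B each had -0.07. None of the 9 boundary and looping factors passed in edgeR or DESeq2, and 0 had an unadjusted p under 0.05.

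Lists of housekeeping, stress and cell cycle genes are given beside the same 10.6%. None of 76 cytoplasmic ribosomal protein genes passed in edgeR or DESeq2. At an unadjusted p under 0.05 in edgeR 15 were lower, beside 1401 of all 12544 genes, and the list median was -0.15 on the log2 scale. Of 56 oxidative phosphorylation genes 2 fell (NDUFB6 and NDUFB3), and the median was also -0.15. Of 37 DNA replication genes 1 fell (ORC4), and of 18 p53 target genes 1 rose (BTG2, log2 fold change 0.76). Glycolysis and hypoxia, and the ATF4 and unfolded protein response, had 1 call each among 24 tested genes, which were EGLN3 (0.60) and CHAC1 (0.47). Of 30 mitosis genes 3 (10%, near the share of all genes) were called, or 5 in DESeq2. CDK1, the main mitotic kinase (-0.50), TOP2A (-0.47) and TTK (-0.40) fell in edgeR, and none of the 30 passed without *ΔWAPL* replicate 2. The list median was -0.18. Of 54 chromatin modifiers 3 rose, among them the acetyltransferase EP300 (log2 fold change 0.65), and none fell in edgeR or DESeq2, at the unadjusted p included.

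Of 88 tested genes of neuronal adhesion and guidance, 22 (25%) fell and 9 (10.2%) rose, beside 4.55% and 6.05% of all genes, with a list median of -0.06. The falls covered latrophilin, NCAM and ephrin receptor genes named above and the class 3 semaphorins SEMA3A, SEMA3C, SEMA3D and SEMA3E, secreted guidance cues. SEMA3A had 38.5, 40 and 36.2 CPM in the parent and 5.58, 5.41 and 4.98 in *ΔWAPL*/*ΔSCC4* cells. Its log2 fold change was -2.84 (SE 0.14, adjusted p = 8.81e-10). Rises in the list were those of NRXN3, CNTNAP2, NLGN4X, EPHA10, TENM1, SEMA6A, CNTNAP1, PLXNB2 and TENM4, with log2 fold changes of 0.42 to 3.11.

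Of 131 listed channel genes 69 were tested, of which 14 rose and 14 fell (20.3% each, beside 6.05% and 4.55% of all genes). Genes silent in 1 group were tested only through the other, which favours such shares. There were 17 calls in all without *ΔWAPL* replicate 2 or without *ΔWAPL*/*ΔSCC4* replicate 3. The glutamate receptor subunit GRIA2 fell from 10.9 ± 0.869 to 0.865 ± 0.369 CPM (SD, n = 3 each). The potassium channel KCNJ2 had no read in the parent and 48 in *ΔWAPL*/*ΔSCC4* cells, at least 15.3-fold higher, and the calcium channel subunit CACNG8 had a log2 fold change of 3.54. MAP2, a dendritic cytoskeleton protein and neural marker, fell from 22.2 ± 3.49 to 2.78 ± 0.789 CPM.

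Of 105 developmental transcription factors, 10 (9.52%) rose and 11 (10.5%) fell, beside 6.05% and 4.55% of all genes. EYA2, a coactivator in organ development, had no read in the parent and 136 in *ΔWAPL*/*ΔSCC4* cells, at least 43.3-fold higher. GATA5, an endoderm and heart factor, went from 0 to 49 reads, at least 15.6-fold higher. LYL1, a haematopoietic factor, fell from 1.35 to 0.154 CPM on average (log2 fold change -3.07, adjusted p = 3.26e-05). Of the 26 tested HOX genes, 2 (7.69%, below the 10.6% of all genes) were called, HOXB9 and HOXD13, both higher (1.57 and 0.98). None fell in edgeR or DESeq2, with 3 lower at an unadjusted p under 0.05, beside 1401 of all 12544 genes.

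Of 34 listed intermediate filament genes 12 were tested, of which 5 rose and VIM fell (50% called, beside 10.6% of all genes). The simple epithelial keratin KRT8 had 3.84, 3.68 and 3.66 CPM in the parent and 51.6, 44.8 and 49.1 after SCC4 loss (log2 fold change 3.70, adjusted p = 1.20e-10). The controls had 8.15 CPM on average, below every *ΔWAPL*/*ΔSCC4* sample. Its partner KRT18 had 58.4 and 73.6 CPM on average (log2 fold change 0.33, adjusted p = 0.118). Of 39 listed blood cell genes 15 were tested, of which 6 rose and 2 fell (53.3% called, beside the same 10.6%). In both lists, genes silent in 1 group were tested only through the other, which favours these shares. CD44, the hyaluronan receptor, rose from 1.20 to 1.54 CPM in the parent to 13.4 to 14.4 in *ΔWAPL*/*ΔSCC4* cells, and HCLS1, a haematopoietic actin regulator, had a log2 fold change of 3.12.

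Of 51 extracellular matrix genes, 10 rose and 4 fell (19.6% and 7.84%, beside 6.05% and 4.55% of all genes). The rises were SPARC (1.76), COL1A1 (0.64), COL9A3, FBN3, HSPG2 and 5 laminin chains, of which LAMC3 had 1.92, while the laminin LAMA2 (-2.22) and the proteoglycan SPOCK3 (-2.94) fell. Of 34 listed imprinted genes 17 were tested, of which 5 (29.4%) rose and none fell in edgeR or DESeq2. At an unadjusted p under 0.05, 3 were lower, beside 1401 of all 12544 genes. NLRP2, silent in the parent, was tested only through its reads in *ΔWAPL*/*ΔSCC4* cells. The 5 were NLRP2, MEST (1.63), IGF2 (1.57), PHLDA2 (1.39) and PEG10 (0.50). IGF2, a fetal growth factor, had 1.98 to 2.69 CPM in the parent and 5.88 to 8.14 after SCC4 loss. Its receptor IGF2R rose from 131 to 202 CPM on average.

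Signalling lists are again given beside the 10.6% of all genes. Of 25 immediate early genes 6 rose, JUN (1.35) and EGR3 (1.28) first, and 5 fell, EGR2 (-2.06) and the MAPK-dependent ETV5 (-1.19) first. The 11 calls became 6 without *ΔWAPL* replicate 2 or without *ΔWAPL*/*ΔSCC4* replicate 1. Of 39 WNT genes 4 rose and 1 fell (12.8% called, near the share of all genes), with the feedback inhibitors RNF43 (2.23) and NOTUM (1.09) among the rises and the ligand WNT3 (-0.62) as the fall. Of 40 genes of BMP, activin and TGF-beta signalling 4 rose and 4 fell, with the receptor ACVR1C (-2.24) and the ligand TGFB2 (-1.0) lower. The 8 calls became 4 without *ΔWAPL* replicate 2, 5 without *ΔWAPL*/*ΔSCC4* replicate 1 and 4 without *ΔWAPL*/*ΔSCC4* replicate 3. In the interferon list 4 of 29 rose and 3 fell, and the 7 calls became 4 without *ΔWAPL* replicate 2 or *ΔWAPL*/*ΔSCC4* replicate 1.

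The remaining lists are given beside the same 10.6% of all genes. As for neuronal adhesion and guidance, genes silent in 1 group were tested only through the other. The IGF axis had 3 rises among 18 tested genes (16.7% called) and Notch signalling 1 rise and 1 fall among 25 (8%). Integrins had 2 and 2 among 16 (25%), and classical cadherins and catenins 2 and 2 among 9 (44.4%). Clustered protocadherins had 1 rise and 2 falls among 15 (20%), and complement and coagulation 4 and 3 among 22 (31.8%). Condensin and SMC complex genes had 1 fall among 14 (7.14%). S100 and annexin genes had 1 fall among 12 (8.33%, ANXA1 with -0.63), and germline genes 1 fall among 10 (10%). The Notch, condensin, S100 and germline shares were below that of all genes.

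**Figure D2:**
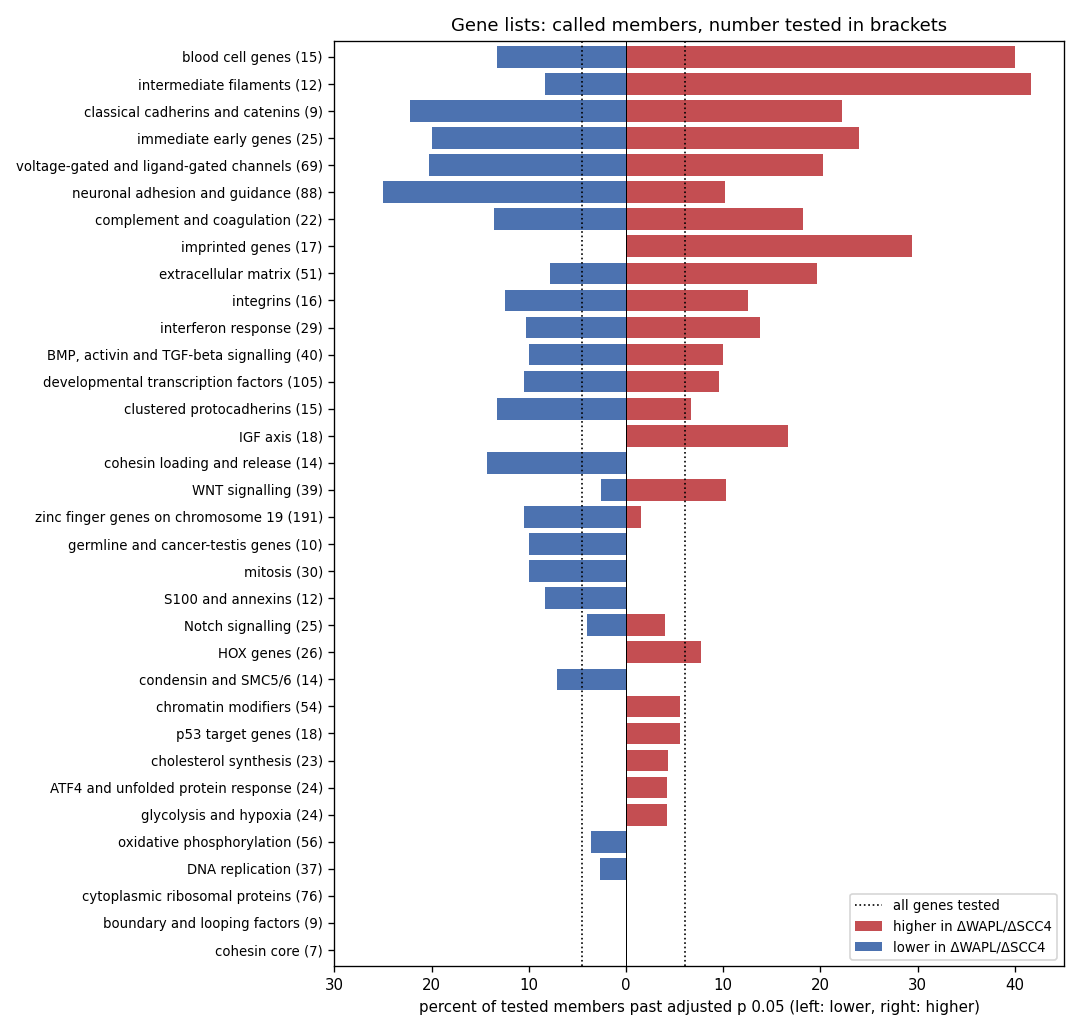
Share of the tested members of each gene list that were higher (red, right) or lower (blue, left) in *ΔWAPL*/*ΔSCC4* than in *ΔWAPL* cells at an adjusted p of 0.05, as horizontal bars with the number tested in brackets. Dotted lines mark the shares over all genes tested, 6.05% higher and 4.55% lower; neuronal adhesion and guidance reaches 25% lower, and cohesin core, boundary and ribosomal protein genes have no call.

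Genes that respond to WAPL loss were taken from clone 1.14 and the controls of set B, none of which entered the comparison of *ΔWAPL*/*ΔSCC4* with its parent. In clone 1.14, 1099 genes were higher and 1437 lower (8.70% and 11.4% of 12636). Of the higher genes, 1066 were tested after SCC4 loss, where 267 (25%) fell and 56 (5.25%) rose, with a median log2 fold change of -0.20. Of the lower genes, 1334 were tested, 317 (23.8%) rose and 36 (2.70%) fell, with a median of 0.19. Among the 10006 genes not called in clone 1.14, 2.61% fell and 3.25% rose.

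The shares were larger for genes with a change of at least 2-fold in clone 1.14. Of 259 such higher genes 134 (51.7%) fell and 26 rose after SCC4 loss, with a median of -0.63. Of 319 such lower genes 172 (53.9%) rose and 19 fell, with a median of 0.69. In all, 584 genes were called in opposite directions in both comparisons and 92 in the same direction. The opposite ones made up 46.3% of the 1262 genes called after SCC4 loss and 24.3% of the 2400 called in clone 1.14, counted over the 12406 genes tested in both. Across these genes the Spearman correlation of the log2 fold changes was -0.338 and Pearson's r was -0.443. Genes are not independent replicates, and no p is given. With controls A in place of B, 2650 genes were called in clone 1.14, of which 497 were called in the opposite and 124 in the same direction after SCC4 loss, and the correlations were -0.146 and -0.342. The count in clone 1.14 rested on single libraries: it was 1523 and 4820 without control replicate 1 and 3 of set B, and 1415 and 1473 without clone 1.14 replicate 1 and 3.

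Among the leading genes, NLRP2 had 12.1 CPM on average in the controls of set B and 0.0177 in clone 1.14, SLC12A3 had 5.69 and 0.0752, and NCAM2 had 0.606 and 22.4. Of the 12 largest rises after SCC4 loss, 9 had passed the threshold as falls in clone 1.14, and UBE2QL1, KSR2 and MCTP2 were not tested there. Of the 12 largest falls, 7 had passed it as rises. Over all genes tested in clone 1.14, 11.4% were lower and 8.70% higher. The rule chose low parent values for the rises and high ones for the falls, which favours both counts. TFPI2 had 3.90 and 3.56 CPM there and did not pass (adjusted p = 0.584). EPHA3 fell in both comparisons, from 33.2 to 15.8 CPM in clone 1.14 and from 11 to 0.818 after SCC4 loss.

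**Figure D3:**
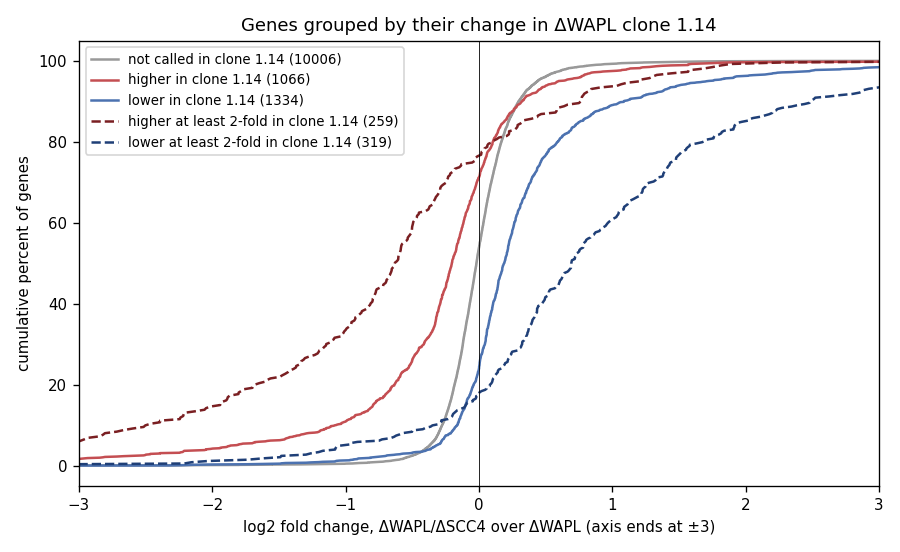
Cumulative share of genes (vertical axis, percent) by their log2 fold change between *ΔWAPL*/*ΔSCC4* and *ΔWAPL* cells (horizontal axis, drawn to ±3), for genes grouped by their change in the separate *ΔWAPL* clone 1.14. Genes higher in clone 1.14 lie to the left of the genes not called there and genes lower in clone 1.14 to the right; dashed lines are genes with at least 2-fold change there, with medians of -0.63 and 0.69.

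Loss of SCC4 in cells with WAPL was set beside these changes. Between *ΔSCC4* cells and the set A controls, 1186 of 12503 genes (9.49%) passed, and 5754 when the replicate number was used as a block. The unblocked count was 2317 without control replicate 1 and 662 without control replicate 2. Over the 12314 genes tested with and without WAPL, 395 were called in both, of which 192 had the same direction and 203 the opposite. The same-direction genes were 15.5% of those called in *ΔWAPL* cells and 17.6% of those called in cells with WAPL. With the replicate block for *ΔSCC4*, 747 were called in both, 353 in the same direction (28.5% and 6.26%) and 394 in the opposite. With controls B, 3548 genes passed for *ΔSCC4*, and 598 were called in both, 241 in the same direction and 357 in the opposite. The Spearman correlation was -0.044 and Pearson's r was 0.045, given as a description. The comparisons share no sample.

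The difference between the responses was tested as an interaction, which 1453 of 12817 genes (11.3%) passed, or 3364 with controls B. As *ΔSCC4* was also 1 clone, dependence on WAPL and traits of single clones cannot be told apart in this test. ALX4 rose in both backgrounds, by 7.10 without WAPL and 2.59 with it on the log2 scale, and the difference passed the test (adjusted p = 4.18e-08). UBE2QL1 and GJA1 rose by 6.18 and 4.47 without WAPL and by 5.09 and 3.35 with it, and their differences did not pass (adjusted p = 0.515 and 0.089). OLFM3 fell in both backgrounds, with -4.94 and -6.58 (interaction adjusted p = 0.158). TFPI2 rose by 1.94 with SCC4 loss alone and was lost with SCC4 loss in *ΔWAPL* cells (interaction adjusted p = 1.64e-09). VCAM1 and POF1B rose by 4.22 and 3.77 in *ΔWAPL* cells and had -2.66 and -2.69 in cells with WAPL (interaction adjusted p = 3.03e-07 and 3.66e-09).

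Changed genes were also looked for as neighbours along the chromosomes. With genes in order of their start in GRCh37, there were 22 runs of at least 3 neighbouring tested genes called in 1 direction, 15 of them lower and 7 higher, with 76 genes. The number of runs was 8 without *ΔWAPL* replicate 2, 51 without *ΔWAPL* replicate 3, 13 without *ΔWAPL*/*ΔSCC4* replicate 1 and 9 without *ΔWAPL*/*ΔSCC4* replicate 3. The median log2 fold change of each chromosome lay between -0.086 on chromosome 4 and 0.042 on chromosome 16.

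The region with the lowest expression relative to the parent was on chromosome 7 from 77646372 to 87461611, around the semaphorin genes. Over 12078 windows of 15 neighbouring tested genes, this window had the lowest median log2 fold change (-0.68). The 1st and 99th percentiles were -0.32 and 0.22. Overlapping windows that start at GNAI1 and CD36 had the same median, with 10 and 9 falls. In the window described here, 11 of 15 genes fell and none rose. It was chosen for its low values, which favours that count. The count of falls was 7 without *ΔWAPL* replicate 2, without *ΔWAPL*/*ΔSCC4* replicate 3 or in the fit over 12 samples. The window held 3 runs, of which 1 remained whole in each of those fits, without a filter, with at least 10 counts in every sample and in the fit over 18 samples. The first was MAGI2 (-0.64), GNAI1 (-0.68), the fatty acid transporter CD36 (-1.08), SEMA3C (-3.91) and the calcium channel subunit CACNA2D1 (-0.61). The next was SEMA3E (-0.74), SEMA3A (-2.84) and SEMA3D (-0.71), and the last CROT (-4.90), the drug efflux pump ABCB1 (-1.12) and RUNDC3B (-0.68).

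SEMA3C had 2.19, 2.41 and 1.86 CPM in the parent and 0.114, 0.0615 and 0.226 in *ΔWAPL*/*ΔSCC4* cells, without overlap. ABCB1 had 25.8 CPM on average in the controls, 72.4 in the parent and 33.4 after SCC4 loss, and SEMA3A had 8.96, 38.3 and 5.32. GNAI1 was the 1 named gene of the window past the threshold whose groups overlapped. PCLO, ELAPOR2, DMTF1 and TMEM243 in the window did not pass, with log2 fold changes of -0.15, -0.07, -0.25 and -0.38. Beyond it, CDK14, 9.72 Mb from the SEMA3C start, had -2.99 (adjusted p = 2.33e-09), TFPI2 lay 13.14 Mb away, and its near neighbour GNG11 had -0.21.

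**Figure D4:**
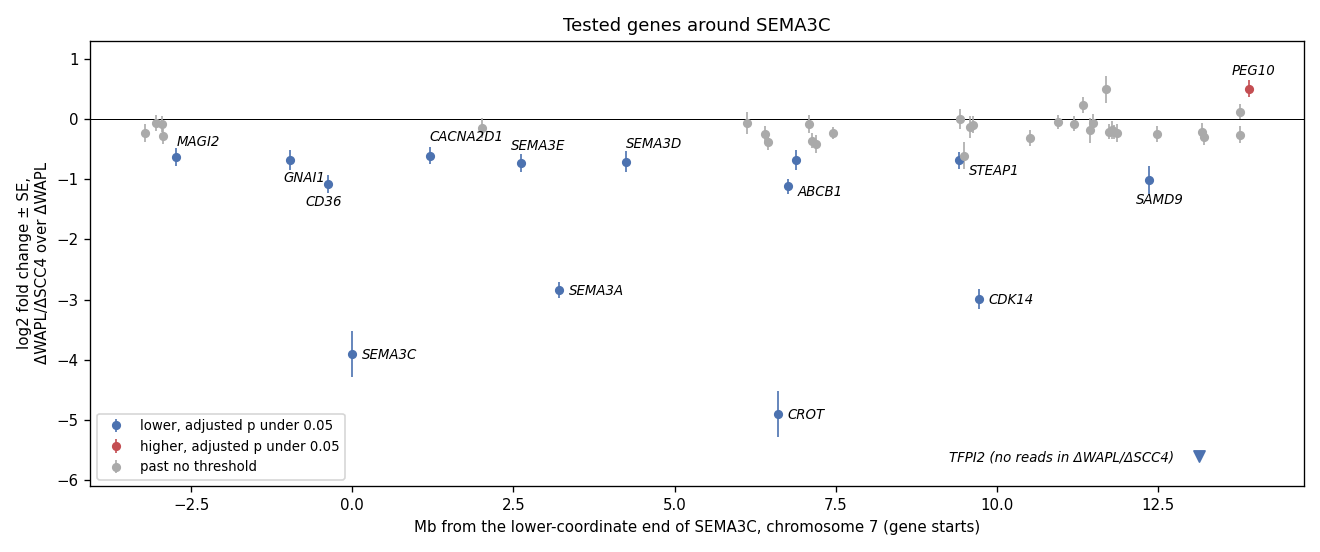
Log2 fold change (± SE) between *ΔWAPL*/*ΔSCC4* and *ΔWAPL* cells for each tested gene (points) by the distance of its start from that of SEMA3C on chromosome 7, in Mb. Blue points passed the threshold as lower, the red point (PEG10) as higher and grey points did not pass; TFPI2, with no reads in *ΔWAPL*/*ΔSCC4* cells, is drawn at the lower edge as a triangle and not at its fitted value.

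The longest run was on chromosome 10 from 58116988 to 61122939. Its 7 genes, ZWINT (kinetochore), IPMK (inositol phosphate kinase), CISD1 (mitochondrial outer membrane), UBE2D1 (ubiquitin conjugation), TFAM (mitochondrial transcription), BICC1 (RNA binding) and FAM13C, fell by modest amounts, with log2 fold changes of -0.78 to -0.49. Without *ΔWAPL* replicate 2, 3 of the 7 passed (ZWINT, IPMK and BICC1), and 4 passed without *ΔWAPL*/*ΔSCC4* replicate 1. TFAM had 297, 254 and 224 CPM in the parent and 178, 203 and 171 after SCC4 loss, and 177 on average in the controls. Over the 7 genes the *ΔWAPL*/*ΔSCC4* average was 0.873 to 1.15 times the average of the controls of set A. In clone 1.14, which shares no sample with this, all 7 had passed as higher, with log2 fold changes of 0.47 to 1.37.

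Other falling runs held genes with larger changes. On chromosome 4, PCDH7, a protocadherin (10.2 to 0.935 CPM on average), fell with ARAP2 and C4orf19, the protease TLL1 (-3.36) fell with CPE, SPOCK3 and DDX60, and GRIA2 fell with PDGFC and GLRB. On chromosome 12, MGAT4C (-3.82), LRRIQ1 (-1.87), TMTC2 (-1.42), ALX1 (-0.81) and C12orf29 (-0.42) fell. On chromosome 19, ZNF606 (-2.50), ZSCAN18 (-1.95) and ZNF329 (-1.55) formed 1 run and ZNF577, ZNF649, ZNF613 and ZNF350 another, with -0.94 to -0.54. ZNF649 and ZNF613 lost their calls in most fits that left out 1 replicate. All zinc finger genes of chromosome 19 were added as a list after the values were seen. Of 191 tested, 20 (10.5%) fell and 3 (1.57%) rose, beside 4.55% and 6.05% of all genes, with a median of -0.17. Reads shared between such similar genes could blur single values.

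The other falling runs were NFE2L2, AGPS and TTC30B, and UBE2E3, ITGA4 and CERKL, both on chromosome 2, PLA2G4A, BRINP3 and RGS2 on chromosome 1, KIAA0825, SLF1 and MCTP1 on chromosome 5, and DACH2, PCDH11X and NAP1L3 on chromosome X. UBE2E3 lost its call in every fit that left out 1 replicate, and PLA2G4A, DACH2 and CERKL in several of them. The run on chromosome 1 spanned 5.98 Mb and that on chromosome X 7.53 Mb. NFE2L2, the master regulator of the antioxidant response, fell from 144 to 78.4 CPM on average, near the 83.9 of the controls. ITGA4, an integrin of leukocytes and neural crest, fell from 122 to 66.0 CPM.

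The 7 rising runs had 3 genes each, as had 10 of the 15 falling runs. TES (2.16), CAV2 (0.85) and CAV1 (1.33), of which CAV1 is the main structural protein of caveolae, rose together on chromosome 7. PCDH19 (1.23), TNMD (1.82) and TSPAN6 (2.63) rose on chromosome X. The others were TNFRSF8, TNFRSF1B and VPS13D, IFFO2, UBR4 and EMC1, ADORA1, BTG2 and ATP2B4, and KLHDC8A, CDK18 and MFSD4A on chromosome 1, and STBD1, SHROOM3 and SOWAHB on chromosome 4, with log2 fold changes of 0.39 to 2.21. IFFO2, EMC1 and VPS13D lost their calls in most fits that left out 1 replicate. TNMD had 52.9 CPM on average in the controls, 6.25 in the parent and 22.3 after SCC4 loss.

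The 12400 tested genes with a position were also grouped by the number of protein-coding genes that start within 1 Mb on each side of their own start, a grouping chosen after the values were seen. Of 873 genes with 0 to 5 such neighbours, 142 (16.3%) fell and 57 (6.53%) rose. The share that fell was 7.26% with 6 to 10 neighbours, 3.70% with 11 to 20, 2.52% with 21 to 40 and 2.51% with over 40. The share that rose was between 5.19% and 6.56% in every bin. The fall in gene-poor stretches was 13.4% of 603 genes when genes were limited to an average log2 CPM of 3 to 7, where the bins had similar levels, and 11.9% to 21.4% when single samples were left out.

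Gene length went with the changes too. Of 200 genes over 500 kb, 49 (24.5%) fell and 25 (12.5%) rose, against 3.39% and 5.36% of 2240 genes of up to 10 kb. Of genes over 200 kb with 0 to 5 neighbours, 25.6% fell and 8.42% rose. With more neighbours, 9.70% of such long genes fell and 10.6% rose. Of genes up to 200 kb, 12% fell and 5.67% rose with 0 to 5 neighbours, and 3.28% fell and 5.69% rose with more. Both length and neighbourhood thus showed higher shares of falls within the other. The median log2 fold change was -0.06 over 500 kb and -0.1 with 0 to 5 neighbours. In clone 1.14 against its own controls, with no sample in common, the direction was the other: 22.5% of genes with 0 to 5 neighbours and 33.5% of genes over 500 kb were higher, and 9.44% and 13.9% lower. In *ΔSCC4* cells against controls, 11.3% of genes with 0 to 5 neighbours were higher and 8.07% lower, or 26.8% and 24.9% with the replicate block. Long genes had lower levels than others (median average log2 CPM 3.54 over 500 kb and 5.29 at 10 to 50 kb). Among genes with an average log2 CPM of 3 to 7, 18.8% of 112 genes over 500 kb fell and 11.6% rose, against 2.75% and 2.91% of 1308 genes of up to 10 kb, although the medians still differed (4.38 and 5.10).

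**Figure D5:**
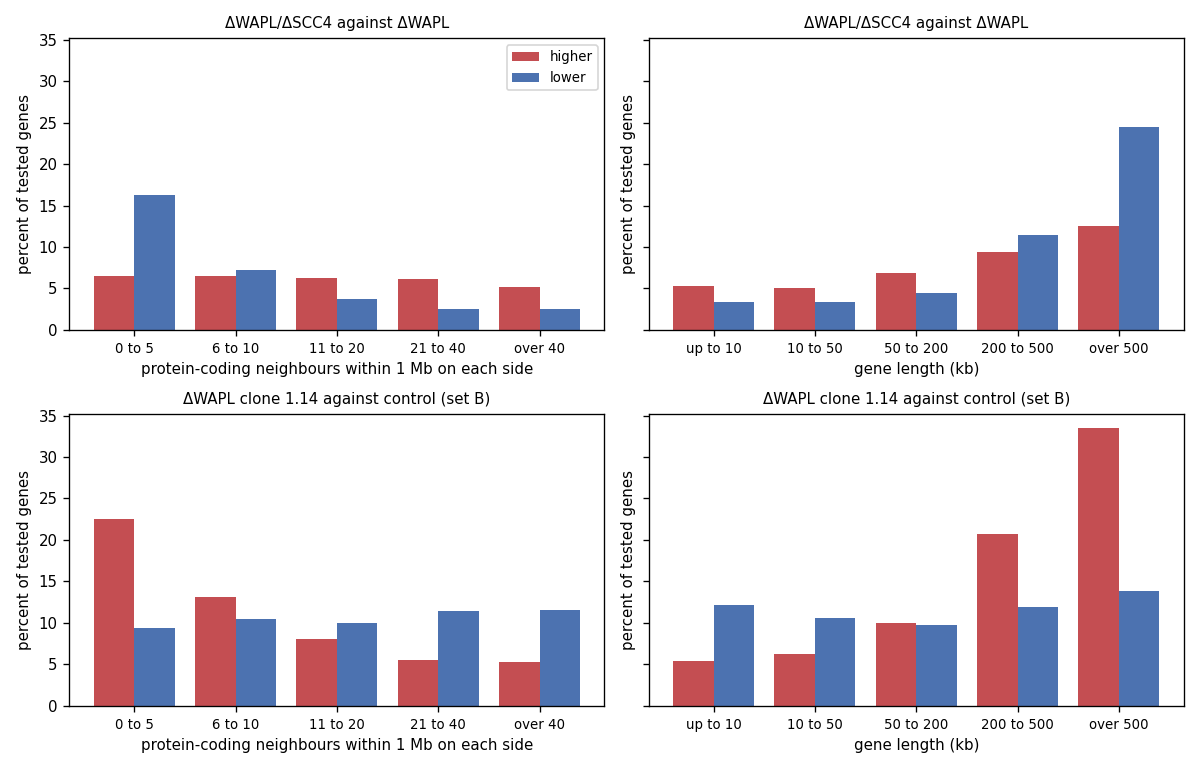
Percent of tested genes that were higher (red) or lower (blue) at an adjusted p of 0.05, by the number of protein-coding neighbours within 1 Mb on each side (left) and by gene length in kb (right). Top, *ΔWAPL*/*ΔSCC4* against *ΔWAPL*, where 16.3% of genes with 0 to 5 neighbours were lower; bottom, *ΔWAPL* clone 1.14 against its controls, where 22.5% of them were higher.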

How the data were processed

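Strand-specific libraries were made from polyadenylated RNA of HAP1 cells. The authors deposited counts of reads per gene from HTSeq, without normalization, after TopHat alignment (TopHat2 2.0.9, HTSeq and hg19 in the submitters' processing notes). Rows that name no gene held 20.9% to 21.7% of the reads in the 6 samples and were left out. Gene positions and symbols came from the GENCODE annotation of GRCh37, in which 96.6% of the 20329 identifiers were found. Control set A was used for clone 3.3, *ΔSCC4* and *ΔWAPL*/*ΔSCC4* and set B for clone 1.14, as read from the run and lane in the file names, since the labels do not state it.

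Counts of *ΔWAPL*/*ΔSCC4* and *ΔWAPL* clone 3.3 were fitted on their own with edgeR 4.0.16 (R 4.3.3): filterByExpr, TMM normalization and the quasi-likelihood test, with Benjamini-Hochberg adjustment over all tested genes and a threshold of 0.05. Depth was 10007646 to 20711127 reads on genes per sample. No replicates of a group were identical or agreed within sampling noise. The SE was taken as the size of the log2 fold change divided by √F, and log2 CPM has a prior count of 2. A 95% counting interval is exact and, like the floor of 3 reads over a group, covers counting error only. An exact permutation test of 3 against 3 cannot go below 0.1, so none was run. Fits were run on simulated counts with the same dispersion for all genes and groups. The spread of the real replicates differed between groups, so the simulation does not give the rate of false calls here.

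Named genes were MAU2, WAPL and genes within 500 kb of MAU2; the 12 largest rises and 12 largest falls with separate groups and a mean log2 CPM of 1 or more; up to 4 called members of each list; genes of the runs; and 5 genes in each direction of the interaction. Genes outside this rule were named after their values were seen. The members and lists were chosen with earlier results of these data known. Alternatives were DESeq2 1.42.0, its size factors, library size only, other filters, larger fits, the replicate number as a block and leaving out each replicate. Same-numbered replicates of *ΔSCC4* and the controls of set A had correlations of deviations from the group means of 0.675, 0.115 and 0.615. Control replicate 2 had 0.114 with *ΔSCC4* replicate 3, so number 2 did not stand out as a pair. Any pairing of numbers 1 and 3 was seen in the data only. Guides came from the labels and promoters from RefSeq.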

Additional observations from a re-analysis of the deposited data

Results flagged for a closer look

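The change that went with SCC4 loss differed between cells without and with WAPL, by the interaction test in edgeR, for 1453 genes. Each genotype was 1 clone, so dependence on WAPL and traits of single clones cannot be told apart. The following values are interaction log2 differences, the change in *ΔWAPL* cells minus the change in cells with WAPL, each past an adjusted p of 0.05. Among genes with an average log2 CPM of 1 or more over the 12 samples, the largest positive differences were these. NLRP2 had 12.93, MT1M 9.77, GABRA5 9.45, CD44 8.74 and S100A6 8.49. In *ΔWAPL* cells MT1M, GABRA5 and S100A6 had log2 fold changes of 0.52, 0.35 and 0.11 and did not pass (adjusted p = 0.131, 0.1 and 0.699). In *ΔSCC4* cells with WAPL they had 0, 0.023 and 0.0896 CPM on average, against 4.78, 17.8 and 27.7 in the controls. MT1M belongs to a family of similar metallothionein genes, among which reads could be split.

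Among the same genes, the largest negative differences were those of TFPI2 (-12.45), HBB (-7.97), TLL1 (-5.80), EPHA5 (-5.40) and EPHA6 (-5.34). HBB, the adult beta globin, had no read in the controls of set A, 1.60 CPM on average in *ΔWAPL*, 5.94 in *ΔWAPL*/*ΔSCC4* and 7.49 in *ΔSCC4* cells. It rose in *ΔWAPL* cells by 1.89 on the log2 scale. EPHA5 had 0.951 CPM in the controls and 19.5 in *ΔSCC4* cells, and 1.5 and 0.709 CPM in the *ΔWAPL* background. Fitted values of genes with no reads in a group depend on the prior count and are no bounds.

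With controls B in place of A these 10 kept their direction and their side of the threshold. Of the 12 largest rises after SCC4 loss in *ΔWAPL* cells, at any average level in the 12 samples, those that differed besides NLRP2 were VCAM1 (6.89), POF1B (6.47), OVOL2 (6.29), BSPRY (5.34), ALX4 (4.52), SLC12A3 (4.42), MCTP2 (3.90) and CHST15 (3.76). Of the 12 largest falls they were, besides TFPI2 and EPHA6, ZNF804A (-8.33), RFTN1 (-6.17), CROT (-5.26), MGAT4C (-4.53), EPHA3 (-4.32) and NCAM2 (-2.88).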

How the results depend on the processing

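With 3 samples a group from 1 clone each, the counts measure these samples. Genes after SCC4 loss in *ΔWAPL* cells numbered 1302 in DESeq2, 1309 with its size factors, 1297 with library size only, 1044 with at least 10 counts in every sample, 1593 without a filter, 1151 and 1493 in the fits over 12 and 18 samples, and 861 to 1805 when single replicates were left out (861 without *ΔWAPL* replicate 2). The replicate block gave 1816, but same-numbered samples had correlations of -0.328, 0.071 and 0.362 and were not treated as pairs. The block gave 5754 genes for *ΔSCC4* against control (main 1186), 3030 for clone 1.14 and 1287 for the interaction. The other control set, an alternative added after seeing the data, gave 3548 for *ΔSCC4*, 3364 for the interaction and 2650 for clone 1.14. Leaving out replicates gave 662 to 2317 for *ΔSCC4*, 1415 to 4820 for clone 1.14, 1114 to 1747 for the interaction and -5.97 to -5.84 for the log2 fold change of MAU2. Runs of at least 3 genes numbered 22, with 8 to 51 when replicates were left out, 10 with at least 10 counts in every sample and 45 with the replicate block, and there were 129 runs of at least 2 genes. Apart from the alternative's own construction the cause was not tested.

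Of 175 called genes named here, 117 passed under every alternative that tested them, 56 were lost on leaving out at least 1 replicate, 9 in DESeq2 and 0 with the block, and none changed direction. Few reads limit single genes: with 1 to 3 reads in a group, the counting interval of a ratio spans over 10-fold.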

Other observations

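Further stretches had shifted medians over 15 neighbouring tested genes. On chromosome 1 from 236681300 to 243418650 (LGALS8 to CEP170) the median log2 fold change after SCC4 loss was -0.51, and 7 of 15 genes fell. The highest median of all windows was 0.36, on chromosome 14 from 69658215 to 73426411 (EXD2 to DCAF4), where 6 of 15 genes rose and none fell in edgeR. These stretches were chosen after the values were seen.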
